A study of Homo sapiens with 4 samples.

Results

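Nonsense-mediated decay (NMD) factors are the proteins that recognise mRNAs carrying a premature stop codon and hand them over for degradation. The 9 genes UPF1, UPF2, UPF3A, UPF3B, SMG1, SMG5, SMG6, SMG8 and SMG9 were taken by symbol from the gene counts of SKBR3 cells, and all 9 were found among 56271 rows. Of these, 8 were expressed highly enough to be tested, while SMG6 lay below the expression filter of 1 RPKM (counts scaled to exon length and to the library total) and is given by its level and by alternative fits. In VIRMA-overexpressing cells, the transcripts of SMG1, UPF3A, SMG5, UPF2 and UPF3B rose by 21.7% to 54.4%, UPF1 fell by 21.5%, and SMG8 and SMG9 did not pass the test. Most genes passed that test: 35.1% of all tested genes were higher and 35.9% were lower. None of the 8 changed by more than 2-fold.

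SKBR3 is an established HER2-positive breast cancer cell line, and poly-A-enriched RNA was sequenced from 2 eGFP control and 2 VIRMA-overexpressing (VIRMA OE) libraries. Both groups carried a lentiviral vector driven by the ubiquitin C promoter. The controls expressed eGFP alone, and the VIRMA OE cells expressed HA-tagged full-length VIRMA, a scaffold subunit of the complex that deposits N6-methyladenosine on mRNA, joined to eGFP by a p2A sequence. Per the study's methods, eGFP-positive cells were sorted and expanded as populations, and the libraries were biological duplicates. A difference between these sorted populations and an effect of VIRMA cannot be told apart. The labels of every library describe culture in a low-oxygen chamber. In the study's methods, that chamber belongs to a hypoxia treatment ending in RIPA lysis, the lysis used for western blots. Its methods for RNA sequencing name no culture condition. The study refers to optimal culture conditions for unstressed cells, without naming these libraries there. The oxygen level is therefore uncertain, and the labels give no difference in it between the groups.

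NMD begins when a ribosome stops upstream of an exon junction complex or far from the poly-A tail. The RNA helicase UPF1 joins the terminating ribosome, UPF2 and UPF3B connect it to the exon junction complex, and the kinase SMG1, held in check by SMG8 and SMG9, phosphorylates UPF1. Phosphorylated UPF1 recruits SMG6, an endonuclease that cuts near the stop codon, and SMG5, which helps to bring in deadenylation and decapping enzymes. Transcripts of several of these factors are themselves NMD substrates, so that their levels are known to rise when decay slows. NMD also restrains mRNAs of the unfolded protein response, and phosphorylation of eIF2alpha in stressed cells is known to dampen NMD.

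Library totals were 81446932 to 86375474 counts. VIRMA is listed as KIAA1429 (GRCh38 chromosome 8, 94487693 to 94553529). Its counts were 710 and 682 in the controls against 3437 and 3460 in VIRMA OE. The log2 fold change was 2.29 (standard error 0.0685, edgeR quasi-likelihood test, Benjamini-Hochberg adjusted p = 9.74e-26), so the labels and VIRMA levels matched. Counts from the native gene and the lentiviral cDNA cannot be told apart. The biological coefficient of variation was 3.93%, and the median absolute log2 difference was 0.064 to 0.066 between replicates and 0.335 between groups. Of the 8 SKBR3 markers, CDH3 was at 0 in every library. The summed CPM (counts scaled to library size after TMM normalization) of the list was 26195 to 26636 in the controls and 23704 to 23875 in VIRMA OE. Most of that fall lay in KRT8, at 8398 and 8337 CPM in the controls and 5845 and 5903 CPM in VIRMA OE. KRT19 and EPCAM were also lower, GRB7 and KRT18 were higher, and ERBB2 and TFAP2A did not pass the test. ESR1, PGR and VIM, genes that SKBR3 cells lack or hardly express, summed to 0.704 to 0.908 CPM. The 10 blood cell markers summed to 31.5 and 22.5 CPM in the controls and 2.05 and 2.05 CPM in VIRMA OE. Most of the control sum came from HBB, a globin gene with 2137, 1543, 0 and 0 counts. The 6 fibroblast markers summed to 13.5 to 13.9 CPM in the controls and 8.51 to 9.10 CPM in VIRMA OE, nearly all of it from COL1A1, a collagen gene at 13.6, 13.2, 8.41 and 8.95 CPM. The part of these transcripts in the results was not tested, and in bulk RNA a change in the number of cells that express a gene and a change in RNA per cell cannot be told apart.

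Of the 8 tested NMD factors, 5 were higher in VIRMA OE at an adjusted p below 0.05, where 35.1% of all 12205 tested genes were, and 1 was lower, where 35.9% of all tested genes were. None of the 8 passed both the adjusted p and a log2 fold change beyond 1 in either direction, a pair of thresholds that 7.46% of all tested genes passed. That count was also 0 at an unadjusted p, with DESeq2 and with limma-voom, since the largest of the 8 log2 fold changes was 0.63 with edgeR. The control and VIRMA OE libraries did not overlap for any of the 8, as for 84.3% of all tested genes. The median log2 fold change was 0.30 over the 8 factors and 0.01 over all tested genes, and 28.4% of tested genes lay above that median of 0.30. For 1 gene in 4 libraries, the smallest two-sided p of an exact permutation test is 0.33, so the adjusted p-values lean on the spread that edgeR shares across genes.

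**Figure D1:**
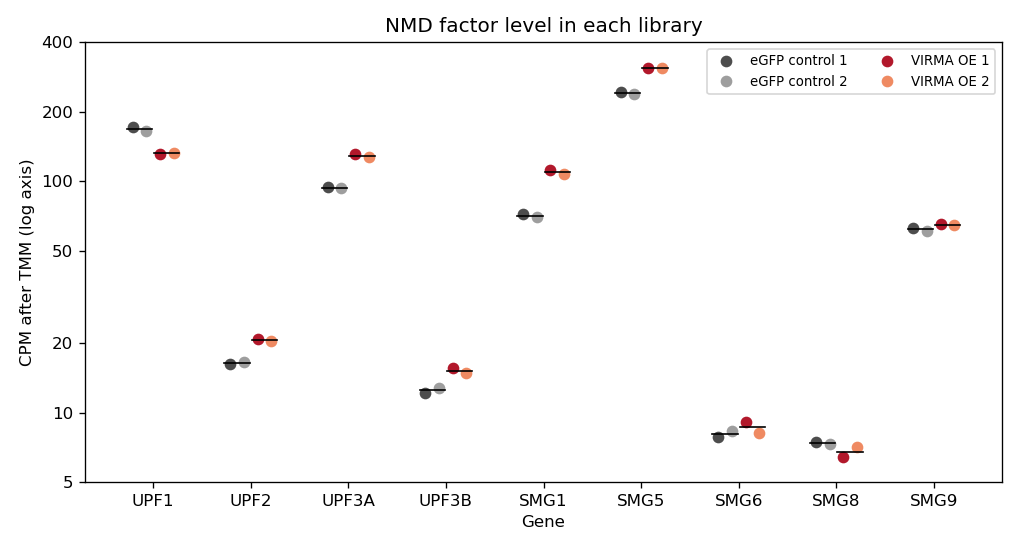
Level of each NMD factor in each library, as CPM after TMM scaling on a log axis. Points are the 4 libraries (gray, eGFP control; red and orange, VIRMA OE) and black bars are group means. UPF1 lay lower in VIRMA OE, UPF2, UPF3A, UPF3B, SMG1 and SMG5 lay higher, and the libraries of SMG6 overlapped.

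UPF1, the ATP-dependent helicase at the centre of the pathway, was the only member that passed the test as lower. The gene lies on GRCh38 chromosome 19 (18831938 to 18868236, plus strand). It had 171.3 and 166.0 CPM in the controls and 131.9 and 132.9 CPM in the VIRMA OE libraries. Both VIRMA OE libraries lay below both controls, by more than the replicates of either group differed. The log2 fold change was -0.35 (standard error 0.0334, adjusted p = 1.68e-11, edgeR). Among all tested genes, 48.3% changed by a larger absolute amount, so the fall was of middling size in this comparison.

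UPF2 and both UPF3 paralogs, the adaptors that link UPF1 to the exon junction complex, all rose. UPF2 (chromosome 10, 11920022 to 12043170, minus strand) had 16.3 and 16.6 CPM in the controls and 20.9 and 20.3 CPM in VIRMA OE. Its log2 fold change was 0.33 (standard error 0.0711, adjusted p = 0.000122, edgeR). UPF3B (chromosome X, 119805311 to 119852998, minus strand), the more active UPF3 paralog in NMD, had 12.2 and 12.8 CPM in the controls and 15.5 and 14.8 CPM in VIRMA OE. Each VIRMA OE library of UPF2 and UPF3B lay above each control, although the low counts of UPF3B, 1004 to 1318 per library, gave it the widest error of the 5 factors that rose. The log2 fold change of UPF3B was 0.28 (standard error 0.0827, adjusted p = 0.00278, edgeR).

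UPF3A (chromosome 13, 114281584 to 114305817, plus strand) is the paralog with weak NMD activity, whose protein competes with UPF3B for UPF2. Its levels were 94.6 and 93.3 CPM in the controls and 131.6 and 127.0 CPM in VIRMA OE. The log2 fold change was 0.46 (standard error 0.036, adjusted p = 8.51e-14, edgeR), larger in absolute size than in all but 35.8% of tested genes. The 3 processed copies of UPF3A, named UPF3AP1, UPF3AP2 and UPF3AP3, had 1 to 32 counts in any library against 7731 to 11160 for UPF3A. Within a library, UPF3A counts were 7.76 and 7.31 times those of UPF3B in the controls and 8.47 and 8.56 times in VIRMA OE. The log2 ratio was higher by 0.18 in VIRMA OE (exact permutation test, two-sided, n = 2 per group, p = 0.33, the smallest possible at this size), and both VIRMA OE ratios lay above both control ratios.

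SMG1, the phosphatidylinositol 3-kinase-related kinase (PIKK) that phosphorylates UPF1, had the largest increase of the tested members. It lies on chromosome 16 (18804853 to 18926454, minus strand) and had 72.1 and 69.9 CPM in the controls and 111.8 and 107.5 CPM in VIRMA OE. The lowest VIRMA OE library stood 0.58 above the highest control on the log2 scale, while replicates differed by 0.05 to 0.06. The log2 fold change was 0.63 (standard error 0.0384, adjusted p = 1.15e-16, edgeR), and 12.8% of tested genes rose by more.

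The SMG1 value carries an uncertainty from near-identical copies, since chromosome 16 holds 7 pseudogenes that match its transcript. The copies aligned to positions 368 to 4601 of the 16062-base SMG1 transcript at 96.48% to 98.47% identity, each covering 17.9% to 26.3% of it. One coding window of 30 bases is shown, the first that all 7 copies cover and in which SMG1P7 differs from SMG1. The difference in SMG1P7 was therefore a condition of the choice. The window lies in exon 11 of 63 at chr16:18879499-18879528 (GRCh38, minus strand, GENCODE release 44). The capital marks a base that differs from SMG1, and letters in lower case are shared with it.
SMG1: ttatatcatctcagtcttgaatttactcac
SMG1P6: ttatatcatctcagtcttgaatttactcac
SMG1P7: ttatatcatctcagtcttgaatttactcaT
SMG1P1 to SMG1P5 held the same 30 bases as SMG1P6. Within this stretch SMG1 and 6 of its copies cannot be told apart by sequence, and the treatment of multiply aligned reads is not given in the sources used here.

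Counts of the copies summed to 1084 and 1073 in the controls against 1719 and 1661 in VIRMA OE, which was 18.1% to 18.7% of the SMG1 counts in every library. Their share of SMG1 was therefore level across groups. SMG1P7 departed from the other copies, with 108 and 100 control counts and 413 and 360 in VIRMA OE. It amounted to 1.82% and 1.73% of SMG1 in the controls and 4.36% and 4.05% in VIRMA OE, while the other 6 copies went from 16.4% and 16.8% to 13.8% and 14.6%. No copy passed the RPKM filter. In an edgeR fit without a filter, SMG1P7 rose by 1.84 on the log2 scale (SE 0.196, adjusted p = 8.06e-20), and the other 6 had adjusted p-values of 0.0543 to 0.822. SMG1P1, SMG1P3, SMG1P4 and SMG1P6 also overlap other genes in their exons, among them NPIPB3, NPIPB4 and NPIPB5. With the copies summed into SMG1 before the fit, the log2 fold change remained 0.63 (standard error 0.0367, adjusted p = 3.08e-17, edgeR). That value follows from the level share of the copies, so it cannot show how multiply aligned reads were treated.

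**Figure D2:**
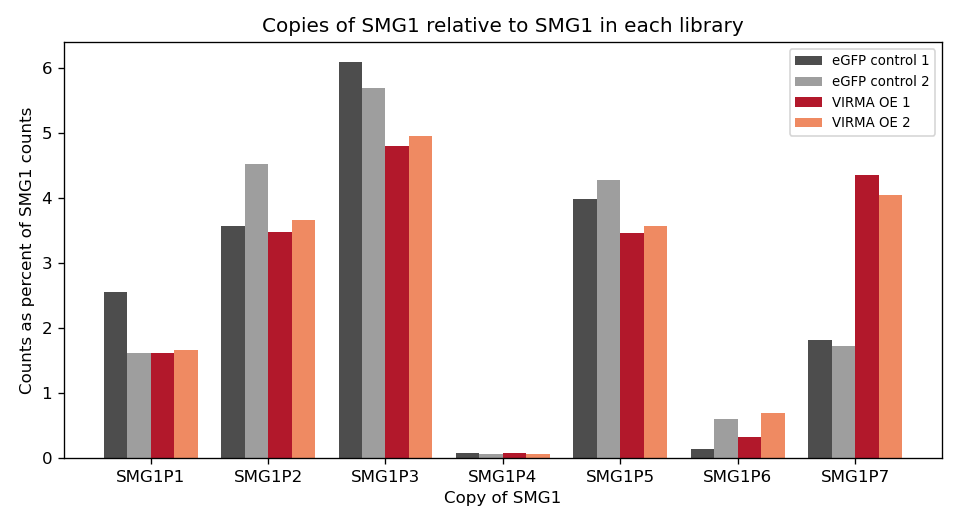
Counts of the 7 copies of SMG1 as a percent of SMG1 counts, with 1 bar for each library (gray, eGFP control; red and orange, VIRMA OE). SMG1P7 went from 1.73% to 1.82% in the controls to 4.05% to 4.36% in VIRMA OE, and SMG1P3 and SMG1P5 lay lower in both VIRMA OE libraries than in both controls.

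SMG8 and SMG9, which form a complex with SMG1 and inhibit its kinase activity, did not pass the test. SMG9 (chromosome 19, 43727992 to 43754990, minus strand) had 62.8 and 61.2 CPM in the controls and 65.1 and 64.8 CPM in VIRMA OE, a log2 fold change of 0.07 (standard error 0.0413, adjusted p = 0.142, edgeR). SMG8 (chromosome 17, 59209400 to 59215247, plus strand) had 7.43 and 7.32 CPM in the controls and 6.40 and 7.13 CPM in VIRMA OE, a log2 fold change of -0.13 (standard error 0.117, adjusted p = 0.343, edgeR). The groups did not overlap in either gene, but the gaps between them were 0.04 on the log2 scale. The SMG9 call depended on scaling: with library totals in place of TMM its log2 fold change was 0.15 (edgeR adjusted p = 0.00165). SMG8 shares 422 bases of its exons with CTD-2510F5.6, a gene on the same strand that had 0 counts in all libraries. Counts of SMG1 were 1.15 and 1.14 times those of SMG9 in the controls and 1.72 and 1.66 times in VIRMA OE. Relative to SMG8 they were 9.71 and 9.54 times, and then 17.5 and 15.1 times. Both ratios were higher in each VIRMA OE library (exact permutation test, two-sided, p = 0.33 for each, the smallest possible).

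SMG5, which binds phosphorylated UPF1, was the most abundant member and rose by 28.3%. It lies on chromosome 1 (156249224 to 156282825, minus strand) and had 244.5 and 238.4 CPM in the controls and 309.3 and 310.3 CPM in VIRMA OE. The replicates nearly coincided and the groups were apart, with a log2 fold change of 0.36 (standard error 0.0305, adjusted p = 8.17e-13, edgeR).

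SMG6, the endonuclease of the pathway, had 7.81 and 8.28 CPM in the controls and 9.13 and 8.18 CPM in VIRMA OE. The groups overlapped. Its RPKM was 0.733 ± 0.0276 in the controls and 0.836 ± 0.0683 in VIRMA OE (SD, n = 2 each), under the filter because the deposited exonic length of 10554 bases sums the exons of all isoforms. On the canonical GENCODE transcript of 5974 bases it passed the filter, with a log2 fold change of 0.10 (standard error 0.106, adjusted p = 0.407, edgeR). Without any filter the value was 0.07 (standard error 0.110, adjusted p = 0.718, edgeR). SMG6 (chromosome 17, 2059839 to 2303771, minus strand) shares 22.9% of its exonic bases with the antisense gene HIC1, which had 43, 39, 73 and 65 counts, and 68 bases with SRR, which had 100 to 136. Whether the counting used strand is not stated. SMG6 counts may therefore hold reads of these genes or lack reads from the shared bases. UPF1, UPF2, UPF3A, UPF3B, SMG5 and SMG9 share no exonic base with another gene of the table, and SMG1 shares 171 bases with an antisense gene that had 0 to 6 counts.

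**Figure D3:**
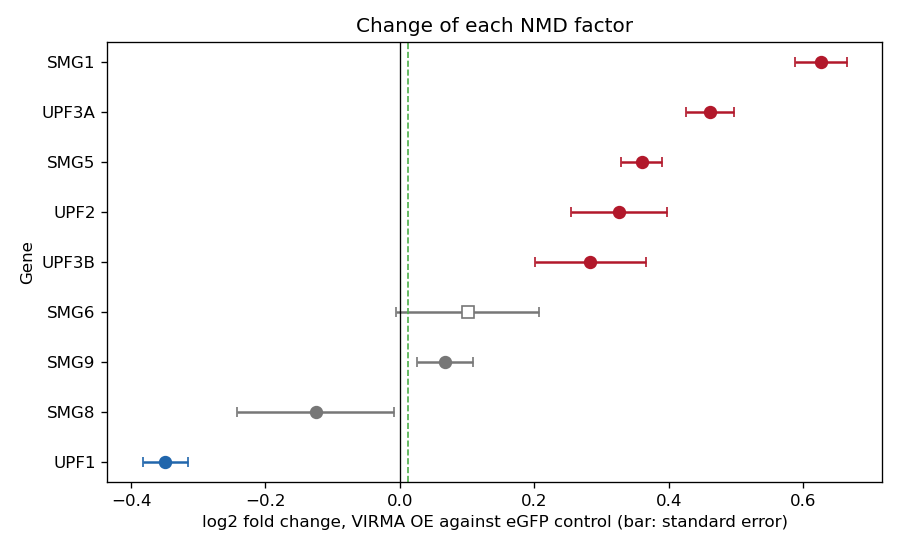
log2 fold change of VIRMA OE against eGFP control for each NMD factor, with standard errors. Red and blue mark genes that were higher or lower at an adjusted p below 0.05, gray marks the others, the open square is SMG6 from the fit with the canonical length, and the dashed line is the median of all tested genes, 0.01. SMG1 stood highest at 0.63 and UPF1 lowest at -0.35.

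Per length, the members spanned a wide range of levels. RPKM, computed on library totals without TMM, ran in the controls from 43.8 for SMG5 through 18.9 for UPF1, 15.7 for UPF3A, 7.52 for SMG9, 3.90 for UPF3B, 2.68 for UPF2, 2.63 for SMG1 and 1.89 for SMG8 to 0.733 for SMG6. UPF2 at 2.68 ± 0.0215 and SMG1 at 2.63 ± 0.0685 RPKM (SD, n = 2 each) did not differ beyond their spread, whereas the other neighbours were farther apart than theirs. In VIRMA OE, UPF3A at 22.8 ± 0.666 RPKM stood above UPF1 at 15.7 ± 0.0139, and SMG1 at 4.30 ± 0.138 stood above UPF2 at 3.56 ± 0.0795 (SD, n = 2 each). The order depended on the length used: on canonical transcripts UPF3A was above UPF1 already in the controls, at 38.1 against 30.5 RPKM, and SMG1 was above UPF2, at 4.25 against 3.06 RPKM.

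Counts of the other members were also set against UPF1 within each library, a comparison that no scaling factor touches. The count of SMG1 relative to UPF1 was 0.421 in each control and 0.848 and 0.809 in VIRMA OE, a 1.97-fold difference. UPF3A went from 0.552 and 0.562 of the UPF1 count to 0.998 and 0.956, a 1.75-fold difference. The ratio was 1.63-fold higher for SMG5, 1.60-fold for UPF2, 1.55-fold for UPF3B, 1.37-fold for SMG6, 1.34-fold for SMG9 and 1.17-fold for SMG8. SMG8 and SMG9 did not pass the test by themselves, and the libraries of SMG6 overlapped. All 8 ratios were higher in both VIRMA OE libraries than in both controls (exact permutation test, two-sided, p = 0.33 for each, the smallest possible). They share UPF1 as denominator, so they are not 8 separate observations. UPF1 had the lowest log2 fold change of the tested members, so a mean rise of the others relative to it followed from that choice. As a background, 77.5% of all tested genes had a higher log2 fold change than UPF1. The summed level of the 9 members was 689 and 674 CPM in the controls and 802 and 793 CPM in VIRMA OE. UPF1 made up 24.9% and 24.6% of it in the controls and 16.5% and 16.8% in VIRMA OE, while SMG5 made up 35.4% to 35.5% and then 38.6% to 39.1%.

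**Figure D4:**
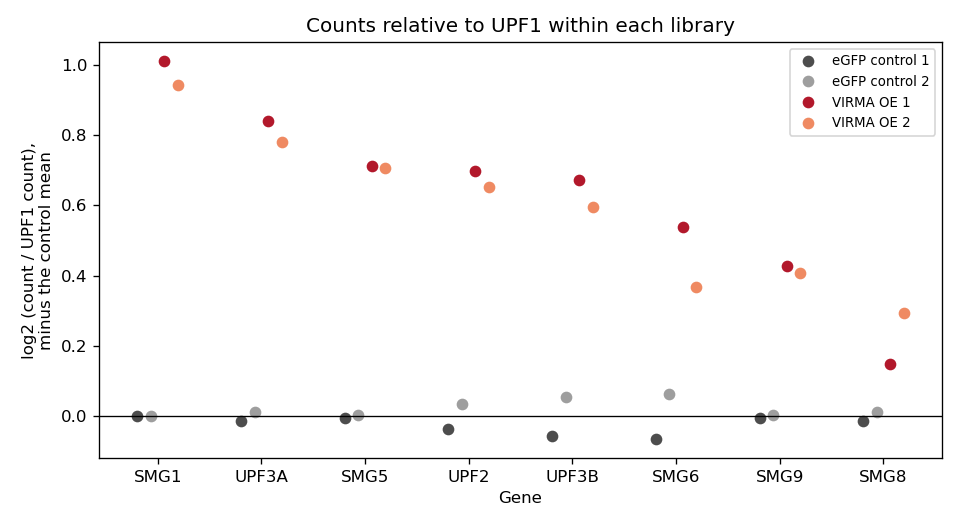
log2 ratio of each member's count to the UPF1 count in the same library, minus the mean of the 2 control libraries. Points are libraries (gray, eGFP control; red and orange, VIRMA OE), and in every gene both VIRMA OE points lie above both control points, from SMG1 with a 1.97-fold difference to SMG8 with 1.17-fold. UPF1, the shared denominator, had the lowest log2 fold change of the tested members.

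The other genes of the pathway did not share 1 direction, and their counts stand beside the 35.1% of all tested genes that were higher and the 35.9% that were lower. The members whose transcripts are known to respond to slowed decay (UPF1, UPF2, UPF3B, SMG1, SMG5 and SMG6) had 4 higher and 1 lower among 5 tested, with a median log2 fold change of 0.33. Among 7 accessory NMD factors, 3 were higher, 1 was lower and 3 did not pass, with a median of 0.07. They ranged from -0.26 for PYM1 (edgeR adjusted p = 1.57e-05), which removes exon junction complexes from translated mRNA, to 0.28 for NBAS (edgeR adjusted p = 0.000209), which acts in NMD at the endoplasmic reticulum.

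The exon junction complex is the mark that UPF3B and UPF2 read. Of its 6 genes, 3 were lower (35.9% of all tested genes were), 1 was higher (35.1% were) and 2 did not pass, with a median log2 fold change of -0.21. EIF4A3, the RNA helicase that anchors the complex, was lowest, with 21421 and 21279 control counts and 15355 and 15284 in VIRMA OE, a log2 fold change of -0.50 (standard error 0.0314, adjusted p = 2.38e-16, edgeR). CASC3, a peripheral core subunit, was highest at 0.14 (standard error 0.0295, adjusted p = 9.23e-05, edgeR). Termination and cap factors, with 2 higher, 2 lower and 2 not passing among 6 tested, were near those shares. They ran from GSPT1 (eRF3a, a release factor) at -0.23 to CTIF (a cap-complex translation factor) at 0.55, with a median of 0.04. GSPT2 was not tested, with 0 to 3 counts.

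Downstream of SMG5, the 15 genes of decapping, 5-prime decay and deadenylation split into 6 higher, 4 lower and 5 not passing, with a median log2 fold change of -0.02. These counts lay near the shares over all tested genes, 35.1% higher and 35.9% lower. PAN2, the catalytic subunit of a poly-A nuclease, was highest, with 4457 and 3909 control counts and 8904 and 8806 in VIRMA OE, a log2 fold change of 1.06 (standard error 0.0456, adjusted p = 4.20e-21, edgeR). EDC4, a scaffold of the decapping complex, was lowest at -0.25 (standard error 0.0595, adjusted p = 0.000281, edgeR). Of the 5 other PIKK genes, which belong to the same kinase family as SMG1, 2 were higher and 3 were lower, with a median of -0.15. They ran from PRKDC, the DNA-dependent protein kinase, at -0.38 (standard error 0.0328, adjusted p = 1.09e-12, edgeR) to ATM, a DNA damage kinase, at 1.21 (standard error 0.0564, adjusted p = 4.87e-20, edgeR). The 7 genes of the chaperone machinery that assembles PIKK proteins, SMG1 among its clients, gave 5 lower, against 35.9% of all tested genes, and 2 not passing, with a median of -0.22. They ranged from TTI2 at -0.68 (standard error 0.126, adjusted p = 1.26e-05, edgeR) to RPAP3 at 0.06 (standard error 0.0808, adjusted p = 0.527, edgeR).

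Of 18 transcripts known as NMD substrates, 17 were tested, and 14 were higher, 1 was lower and 2 did not pass, where 35.1% of all tested genes were higher and 35.9% lower. The median log2 fold change was 0.66, which 11.6% of all tested genes exceeded. Of the 17, 6 passed both thresholds, all as higher, where 552 of 12205 tested genes did so. In either direction, 7.46% of all tested genes passed both. DDIT3, which encodes the stress transcription factor CHOP, was highest, with 994 and 1036 control counts and 11635 and 11364 in VIRMA OE, a log2 fold change of 3.48 (standard error 0.0462, adjusted p = 3.20e-36, edgeR). MAP3K14, an NF-kappaB pathway kinase, was lowest at -0.24 (standard error 0.0984, adjusted p = 0.0322, edgeR). The 6 were DDIT3, SLC7A11 (a cystine transporter), ERN1 (the unfolded protein response sensor IRE1), TNFRSF10B (a death receptor), GADD45A (a growth arrest factor) and ATF3 (a stress transcription factor), which are also genes of cellular stress responses. So are ATF4, at 0.73, and GADD45B, at 0.21, both higher on the same list. Of the 6 snoRNA host transcripts on the list, GAS5 was at 0.68, ZFAS1 at 0.66, EPB41L4A-AS1 at 0.42, SNHG1 at 0.31 and SNHG12 at 0.16, each higher at an edgeR adjusted p of at most 0.00598. The other one, SNHG15, was at -0.05 (edgeR adjusted p = 0.212). TBL2 was at 0.18 and CDKN1A at -0.01 (edgeR adjusted p = 0.960 for CDKN1A). The list was chosen with earlier results of these data known, so its median does not stand for NMD substrates in general. Stability was not measured, so transcription and decay cannot be told apart in any of these values.

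**Figure D5:**
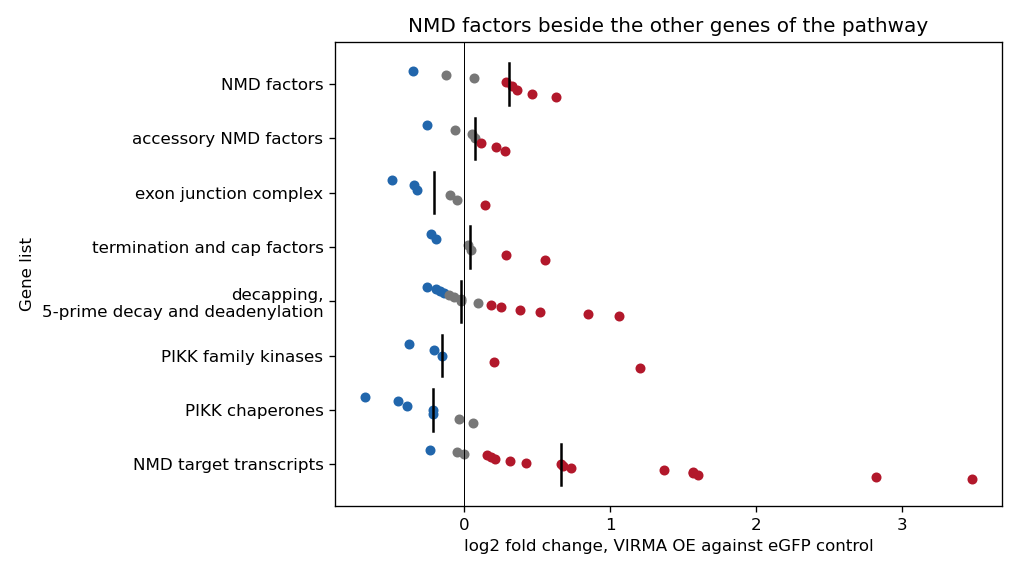
log2 fold change of VIRMA OE against eGFP control for the tested genes of 8 lists, with each list's median as a black bar. Red and blue points were higher or lower at an adjusted p below 0.05 and gray points did not pass. Medians ran from -0.22 for the PIKK chaperones to 0.66 for the NMD target transcripts, with the NMD factors at 0.30.

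Promoters of the members were searched in RefSeq sequences (GRCh38.p14, 250 bases before to 50 after each start, both strands), which matched 8 of the 9 genes with 15 promoters. The C/EBP-ATF element TTGCATCA, found in 0.87% of 35116 promoters, was in none of the 15, nor was the looser form TGATGNAA (3.62% of promoters), which overlaps it on the other strand. The cAMP response element TGACGTCA (1.85%) and the ER stress element (0.08%) were likewise in none. The box CCAAT, contained in the ER stress element and found in 34.6% of promoters, was in 5 of the 15, from UPF1, UPF2, UPF3B and SMG5. A missing match says only that these letters are not in these windows.

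The tested genes nearest to SMG1 in pattern, by Euclidean distance between centred log2 CPM values over the 4 libraries, were LRIF1 (distance 0.00612), NCBP3 (0.0185) and MTHFSD (0.0197), and 278 genes lay within 0.1. For UPF1 they were GATAD2A (0.00173), BUB3 (0.00695) and HRAS (0.00936), with 780 genes within 0.1.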

How the data were processed

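Poly-A RNA-seq libraries of SKBR3 cells (2 eGFP control, 2 VIRMA-overexpressing) were made with a stranded kit. The authors trimmed reads with Trimmomatic 0.39, aligned them with STAR 2.5.2a to GRCh38 (Ensembl release 86) and ran featureCounts on the alignments. Raw counts per gene were deposited, beside exon positions and exonic length. The columns without a group name were taken as the VIRMA-overexpressing libraries, an assignment checked on VIRMA itself.

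RPKM used library totals and the deposited length, and 12205 genes above 1 RPKM in at least 2 of 4 libraries were tested in edgeR 4.0.16 (quasi-likelihood test, R 4.3.3), with TMM and a single term for group. P-values were adjusted over these genes (Benjamini-Hochberg). Standard errors were derived from each log2 fold change and its F statistic (estimate / root of F). The alternatives were DESeq2 1.42.0, limma-voom 3.58.1, other scalings and filters, the replicate number as a block, each library left out, and SMG1 summed with its copies. The filter on canonical length was added after seeing the data. Copies were aligned with blastn 2.17.0. The test was checked on counts simulated for 12205 genes, with 50 changed at each size. It recovered 34 of 50 at a log2 size of 0.3, 45 at 0.5, 49 at 1 and 50 at 2, with 8 false calls. Few genes were changed there, as many up as down, so the check does not cover data in which most genes were called.

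The members and gene lists were chosen with earlier results of these data known. All members were named, along with copies, the highest and lowest tested gene of each list, and the 3 genes nearest in pattern to SMG1 and UPF1. Only some of the overlapping genes were named. A listed gene is not reported here and was left out of the list counts. The stress and snoRNA host genes, TBL2 and CDKN1A of the substrate list were named after their values were seen. The same holds for HBB, COL1A1 and the single SKBR3 markers. Replicates were more different than sampling noise (chi-square per degree of freedom 7.87 and 6.18) and were kept separate.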

Additional observations from a re-analysis of the deposited data

How the results depend on the processing

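The 5 higher factors and UPF1 passed the test in the same direction in every alternative run. SMG9 also passed with upper-quartile factors (0.14, adjusted p = 0.00333) and library totals (0.15, adjusted p = 0.00165), scalings that raised the median of all genes by 0.07 and 0.09. The median over the NMD factors was 0.38 with upper-quartile factors and 0.39 with library totals. It was 0.24 with filterByExpr, 0.25 without a filter and 0.25 when each library had to hold 10 counts or more, alternatives in which SMG6 was also tested. Leaving out each library in turn, with the lone library assumed to vary like the other group, gave medians of 0.28 to 0.33. Replicate numbers did not pair the libraries (correlation of deviations 0.03), and the replicate number as a block gave a median of 0.30 and changed no call. Of 138 values under alternatives other than leaving out a library, 131 counted as unchanged and 0 reversed direction. The rest were the 2 SMG9 values that passed and 5 medians that moved by more than 0.037 but stayed positive. A count of 6 higher factors in place of 5 was taken as unchanged. The 138 values include those of VIRMA and SMG1P7, which are not NMD factors. They also include the UPF3A to UPF3B ratio on RPKM, which could not differ because the lengths cancel. The count past both thresholds was 0 in every alternative and says little about the single factors. Both SMG6 and SMG8 had 543 to 774 counts per library, which limits what these libraries can show for them.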
